A study of Mus musculus with 8 samples.

Results

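Chemokines are small secreted proteins that steer the movement of leukocytes and other cells, and their receptors are G protein-coupled receptors of the cell surface. The genes described here are the protein-coding genes of the mm9 mouse annotation whose symbol is Ccl, Cxcl, Ccr or Cxcr followed by a number, with Xcl1, Xcr1, Cx3cl1 and Cx3cr1 added. The 57 gene models described have 56 symbols, since Ccl25 was annotated as a pair of overlapping models, and were counted against 22366 protein-coding genes in all. Of the 57, 38 encode ligands and 19 encode receptors, and they lie on 11 chromosomes. No filter on values was applied, so all 57 entered every count.

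Chemokine genes are known for their clusters, which arose by repeated duplication of neighbouring genes. In adipose tissue the family is best known for the recruitment of immune cells: Ccl2, acting through Ccr2, draws monocytes into fat. Several ligand genes are switched on by inflammatory signals through the transcription factor NF-kappaB. Contact with the nuclear lamina, the protein meshwork under the inner nuclear membrane, is often accompanied by low transcription, and the long stretches of chromatin in contact with it are called lamina-associated domains (LADs).

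LADs had been mapped by LaminB1-DamID in 3T3-L1 cells, an established mouse line of preadipocytes that turns into fat-storing adipocytes in culture. The bacterial Dam methylase was delivered by lentivirus either fused to LaminB1 or on its own, and it marks the adenine of GATC sequences near it. The 4 conditions were untreated preadipocytes at day 0, and adipocytes at day 9 of differentiation that carried a non-target control shRNA, an shRNA to Tmem120a, or shRNAs to Tmem120a and Tmem120b. The last pair are called the single and the double knockdown here, and the figures label them Tmem120a knockdown and Tmem120a/b knockdown. Tmem120a and Tmem120b encode transmembrane proteins of the nuclear envelope, and the question put to the knockdowns was whether they affect which genes sit at the lamina in adipocytes. The adipocytes were transduced with the Dam constructs at day 6 after induction, and induction medium contained insulin, dexamethasone, IBMX and rosiglitazone. Each condition had 1 LaminB1-Dam library and 1 Dam library, 8 libraries in all, and gave 1 list of LADs. All comparisons below are therefore between single lists, with no replicate, no spread and no test. The labels give an shRNA for the adipocytes only, so differentiation and the shRNA vector cannot be told apart when preadipocytes and adipocytes are compared. The lists hold positions, without signal, read depth or RNA, so neither cell identity nor the depth of knockdown was checked against marker genes or the targeted genes here.

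The lists held 3914 LADs in preadipocytes, 2542 in adipocytes, 5723 in the single knockdown and 6971 in the double knockdown. They covered 1193, 1198, 1164 and 1161 Mb, so the knockdown lists held more and shorter LADs over a slightly smaller total. There were also 2021 deposited regions that were in LADs in preadipocytes but not in adipocytes (released regions), and 1808 with the opposite change (recruited regions).

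Because Dam methylates only GATC, nearly all borders of LADs fall on GATC sites (96.5% to 98.8% of them over the lists), and the position of a border relative to a gene is what decides whether the gene is counted as released or kept. The borders that set the state of Ccr1, Ccr1l1, Cxcl13, Cxcl14 and Ccl20, 5 of the 7 members whose state differed between preadipocytes and adipocytes, are shown here. Each line gives 12 bases on each side of the GATC at the border, on the plus strand of mm9 from 5′ to 3′, with the GATC in capitals.

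Left end of the preadipocyte LAD over Ccr1 and Ccr1l1, chr9:123843854-123843881: tgtttgaatctgGATCtcatgtatccaa

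Left end of the adipocyte LAD over Ccr3 and Ccr2, chr9:123901890-123901917: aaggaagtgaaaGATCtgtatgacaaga

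Right end of the adipocyte LAD beside Cxcl13, chr5:96385423-96385450: gatcaaagccacGATCactgtggcttaa

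Left end of the preadipocyte LAD over Cxcl14, chr13:56345139-56345166: tcacctgcaaagGATCctgagaaggtag

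Right end of the preadipocyte LAD over Cxcl14, chr13:56402710-56402737: gacactccgaagGATCtacccaaacatg

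Left end of the adipocyte LAD over Ccl20, chr1:83103917-83103944: agggctaaacatGATCtggattctgtac

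Most chemokine genes lay outside LADs in every list. The bodies of 40 of the 57 met no LAD in any of the 4 lists (70.2%), beside 63.7% of all protein-coding genes. These were 29 of the 38 ligands and 11 of the 19 receptors. The bodies of 7 met a LAD in all 4 lists (12.3%, beside 19.3% of all genes), and the remaining 10 were in LADs in some lists and not in others (17.5%, beside 16.9%).

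The number of members in LADs was lower in adipocytes and in the single knockdown than in the other lists. The body met a LAD for 13 members in preadipocytes (22.8%, beside 26.2% of all genes), for 10 in adipocytes (17.5%, beside 23.3%), for 10 in the single knockdown (17.5%, beside 27.5%) and for 13 in the double knockdown (22.8%, beside 29.5%). With LADs under 100 kb dropped, the counts were 10, 10, 9 and 11 in the same order, and with gaps under 50 kb between LADs closed they were 14, 10, 10 and 14. The lower count in adipocytes than in preadipocytes thus depended on how short LADs were treated. Without the 6 members of chromosome 4, whose calls are uncertain, the counts were 9, 5, 6 and 8 of 51 members. Leaving them out was chosen after seeing the data. Shares of all genes were not computed under these settings, so whether all genes changed in the same way was not tested. By role, the 13 in preadipocytes were 7 ligands and 6 receptors. The adipocyte list held 7 ligands and 3 receptors, the single knockdown 5 and 5, and the double knockdown 6 and 7. The 3 receptors that adipocytes lacked belong to 1 cluster. The equal number of ligands in preadipocytes and adipocytes covers different genes, since Cxcl13 and Cxcl14 left and Ccl20 and Ccl21a entered.

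With the start site in place of the gene body, the counts were 13, 10, 9 and 13 in the same order of lists (beside 23.3%, 21.2%, 22.5% and 23.8% of all genes). The members were the same as by gene body except in the single knockdown, where Cxcr4 dropped out.

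**Figure D1:**
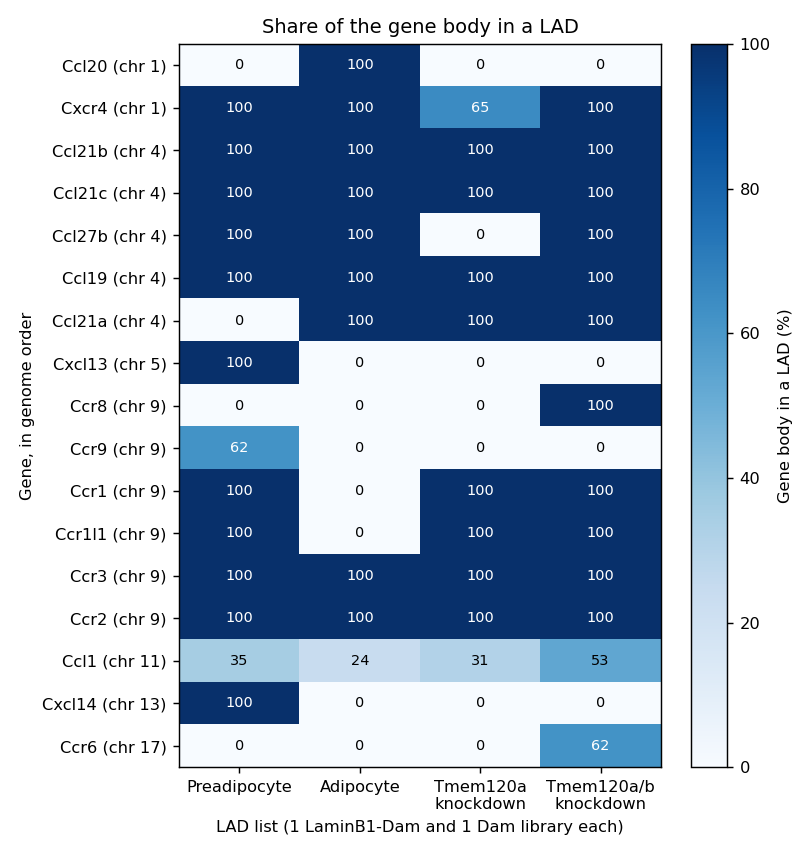
Share of the gene body inside LADs (percent, colour scale and printed value) for the 17 members that met a LAD in at least 1 of the 4 lists, 1 row per gene and 1 column per list. Ccr1 and Ccr1l1 are at 100 in every list but that of adipocytes, where they are at 0, and Ccl20 is at 100 in adipocytes alone.

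Between preadipocytes and adipocytes, 5 members left LADs (8.77%, beside 4.81% of all genes). They were the receptor genes Ccr9, Ccr1 and Ccr1l1 and the ligand genes Cxcl13 and Cxcl14. The same 5 were the members that met a deposited released region (8.77%, beside 5.75% of all genes). The 3 receptor genes belong to a single cluster, in which Ccr1 and Ccr1l1 shared 1 released region and Ccr9 met others, so the 5 genes stand for 4 places in the genome. In the opposite direction, 2 members were in LADs in adipocytes and not in preadipocytes (3.51%, beside 1.88% of all genes), the ligand genes Ccl20 and Ccl21a. By start site the same 5 and the same 2 members changed (beside 3.94% and 1.84% of all genes). Of these, only Ccl20 met a deposited recruited region (1 of 57, 1.75%, beside 3.08% of all genes). With LADs under 100 kb dropped, 3 members left LADs, without Ccr9 and Cxcl14, and 3 entered. The 3 that entered were Ccl20 and, on chromosome 4, Ccl21a and Ccl19, whose calls are uncertain. Ccl19 was added because its preadipocyte LAD of 48.0 kb was dropped. The larger number leaving than entering thus depended on short LADs, in part through calls on chromosome 4. No share of all genes was computed for that setting.

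The Ccr cluster of chromosome 9 held the largest set of members that changed. Over a span of 441 kb it holds 7 members in the order Ccr9, Cxcr6, Xcr1, Ccr1, Ccr1l1, Ccr3 and Ccr2. In LADs were 5 of the 7 in preadipocytes, 2 in adipocytes, and 4 in each knockdown. The share of the span that lay in LADs was 56.4% in preadipocytes, 28.7% in adipocytes, 38.2% in the single knockdown and 43.4% in the double knockdown. Adipocytes thus had the smallest LAD coverage of the cluster, and both knockdowns lay between adipocytes and preadipocytes.

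A single LAD covered the right part of the span in each list, and its left end was at a different GATC site in each of them. In preadipocytes it began at position 123843869 and in the double knockdown at position 123837041, both before Ccr1. In the single knockdown it began at position 123859771, still before Ccr1. In adipocytes it began at position 123901905, between Ccr1l1 and Ccr3.

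**Figure D2:**
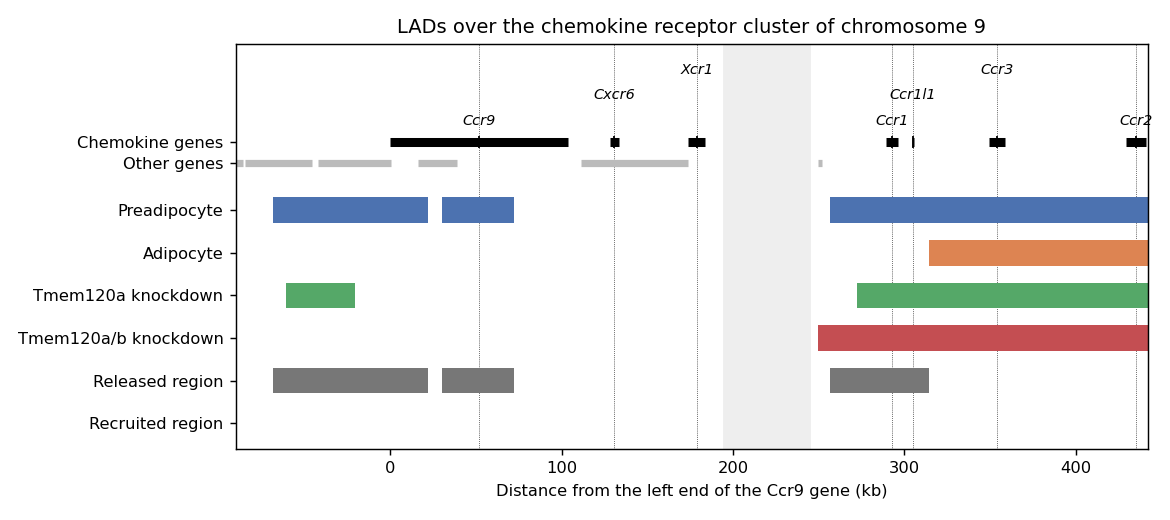
LADs of the 4 lists and the deposited released and recruited regions over the Ccr cluster of chromosome 9, with distance in kb from the left end of the Ccr9 gene along the x axis. Chemokine genes are black, other genes light grey, dotted lines mark the middle of each chemokine gene, and the shaded band is an assembly gap; the adipocyte LAD covers Ccr3 and Ccr2 and not Ccr1 and Ccr1l1, and the LADs of the other 3 lists cover all 4 genes.

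Ccr1 (ENSMUSG00000025804.4, chr9:123876959-123883525, minus strand), a receptor for Ccl3 and Ccl5 on monocytes and neutrophils, lay wholly in a LAD in preadipocytes (100% of the body), with 0% in adipocytes, and 100% in both knockdowns. Its start site lay 18.4 kb from the adipocyte LAD. Ccr1l1 (ENSMUSG00000064039.3, chr9:123891782-123893241, minus strand), a close relative of Ccr1, had the same values, and its start site was 8.66 kb from the adipocyte LAD. Both genes lay in 1 released region of 58.0 kb (chr9:123843869-123901904) that holds no other protein-coding gene and has 139 GATC sites. Of that region, 72.6% was in a LAD in the single knockdown and 100% in the double knockdown. Ccr1 and Ccr1l1 were the members found in LADs in every list but the adipocyte list (2 of 57, 3.51%, beside 1.44% of all genes).

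Ccr3 (chr9:123936703-123946421, plus strand), the eotaxin receptor of eosinophils, and Ccr2 (chr9:124016689-124028296, plus strand), the receptor for Ccl2 on monocytes, were at 100% in all 4 lists. They lie next to the released pair, on the far side of the adipocyte border. Cxcr6 (chr9:123715595-123720872, plus strand), the receptor for Cxcl16, met no LAD in any list, and its start site lay 55.9, 186, 144 and 121 kb from the nearest LAD in preadipocytes, adipocytes, the single knockdown and the double knockdown. Xcr1 (chr9:123761436-123771246, minus strand), the receptor for Xcl1 on cross-presenting dendritic cells, was also outside, at 72.6, 131, 88.5 and 65.8 kb in the same order. An assembly gap of 50 kb (chr9:123782329-123832328) lies between Xcr1 and the LADs over Ccr1 and was in no LAD.

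Ccr9 (ENSMUSG00000029530.8, chr9:123587557-123691089, plus strand), the receptor for Ccl25 that guides lymphocytes to the small intestine, differed from its neighbours. Of its 104 kb body, 61.7% was in LADs in preadipocytes and 0% in the other 3 lists. The overlap rests on 1 long annotated transcript. The coding part of the gene (chr9:123683694-123689479) was outside LADs in all 4 lists, at 24.0 kb from the nearest LAD in preadipocytes, 212 kb in control adipocytes, 117 kb in the single knockdown and 148 kb in the double knockdown. Of its pair of released regions, that of 90.6 kb (chr9:123518935-123609544), shared with Lztfl1, Slc6a20a and Slc6a20b, was 44.8% in LADs in the single knockdown and 0% in the double knockdown. The other, of 41.9 kb (chr9:123617801-123659726), was at 0% in both.

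Of the coding sequences of the cluster, 2 pairs were compared. The longest coding sequences of Ccr1 and Ccr1l1 were 76.0% identical, and those of Ccr1 and Ccr3 67.9%. In the window over the cluster, 4.83% of 50-base sequences occurred more than once within that window. Copies elsewhere in the genome were not counted.

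The 200 bases upstream of the start sites of the 2 receptor genes that were outside LADs in adipocytes alone are given here from 5′ to 3′ on the gene's strand, with matches to GATC, to TATAAA and to the consensus of NF-kappaB sites in capitals.

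Ccr1, chr9:123883526-123883725, minus strand: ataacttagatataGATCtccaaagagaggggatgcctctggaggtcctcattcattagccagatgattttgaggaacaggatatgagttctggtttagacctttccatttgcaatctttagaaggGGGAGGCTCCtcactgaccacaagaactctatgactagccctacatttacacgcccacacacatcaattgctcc

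Ccr1l1, chr9:123893242-123893441, minus strand: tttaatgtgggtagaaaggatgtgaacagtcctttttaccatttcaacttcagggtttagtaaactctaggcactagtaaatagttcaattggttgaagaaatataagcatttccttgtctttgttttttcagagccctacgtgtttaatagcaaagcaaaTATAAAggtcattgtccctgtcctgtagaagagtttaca

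Ccr1 held a GATC and a match to the NF-kappaB consensus in this window and Ccr1l1 held a TATAAA, so the 2 genes with 1 LAD pattern did not share a motif of those searched.

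Cxcl13 and Cxcl14 are the ligand genes that left LADs between preadipocytes and adipocytes, and both were at 100% in preadipocytes and 0% in the other 3 lists. Cxcl13 (ENSMUSG00000023078.4, chr5:96385945-96390086, plus strand) draws B cells into lymphoid follicles through Cxcr5. In preadipocytes it lay in a LAD of 1879 kb. In adipocytes that LAD ended 0.507 kb upstream of the Cxcl13 start site, and in the single and double knockdowns the nearest LADs ended 11.1 and 10.5 kb upstream. Of the 5 members that left LADs, Cxcl13 thus had its start site nearest to an adipocyte LAD. Its released region of 60.6 kb (chr5:96385438-96446079, 154 GATC sites) held no other protein-coding gene. None of that region was in a LAD in the single knockdown and 43.0% was in the double knockdown, but that part did not reach the gene.

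Cxcl14 (ENSMUSG00000021508.9, chr13:56390008-56397912, minus strand), a chemokine of epithelia and fat, lay in a preadipocyte LAD of 57.6 kb (chr13:56345154-56402724, 143 GATC sites). The whole of that LAD was a released region, which also held the neuronal transcription factor gene Neurog1. None of it was in a LAD in either knockdown. The start site of Cxcl14 was 25.8 kb from a LAD in adipocytes, 5.70 kb in the single knockdown and 35.0 kb in the double knockdown. Cxcl13, Cxcl14 and Ccr9 were the members in LADs in preadipocytes alone (3 of 57, 5.26%, beside 1.59% of all genes). For Cxcl13 in the double knockdown this rests on a break between LADs, and with gaps under 50 kb closed Cxcl13 was in a LAD there. The preadipocyte calls of Cxcl14 and Ccr9 rest on LADs under 100 kb and are lost when such LADs are dropped.

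Ccl20 (ENSMUSG00000026166.8, chr1:83113341-83115742, plus strand), the ligand of Ccr6 that attracts Th17 cells and dendritic cells, was at 0% in preadipocytes, 100% in adipocytes and 0% in both knockdowns. It was the only member in a LAD in adipocytes alone (1 of 57, 1.75%, beside 0.434% of all genes). The adipocyte LAD over it was 912 kb long. Its recruited region of 72.4 kb (chr1:83103932-83176305, 145 GATC sites) also held Wdr69. Of that region, 0.98% was in a LAD in the single knockdown and 4.66% in the double knockdown. The start site of Ccl20 lay 36.0 kb from a LAD in preadipocytes, 9.41 kb in the single knockdown and 54.6 kb in the double knockdown. In the single knockdown a LAD ended at the same GATC at which the adipocyte LAD began, so the list changed sides at that site.

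**Figure D3:**
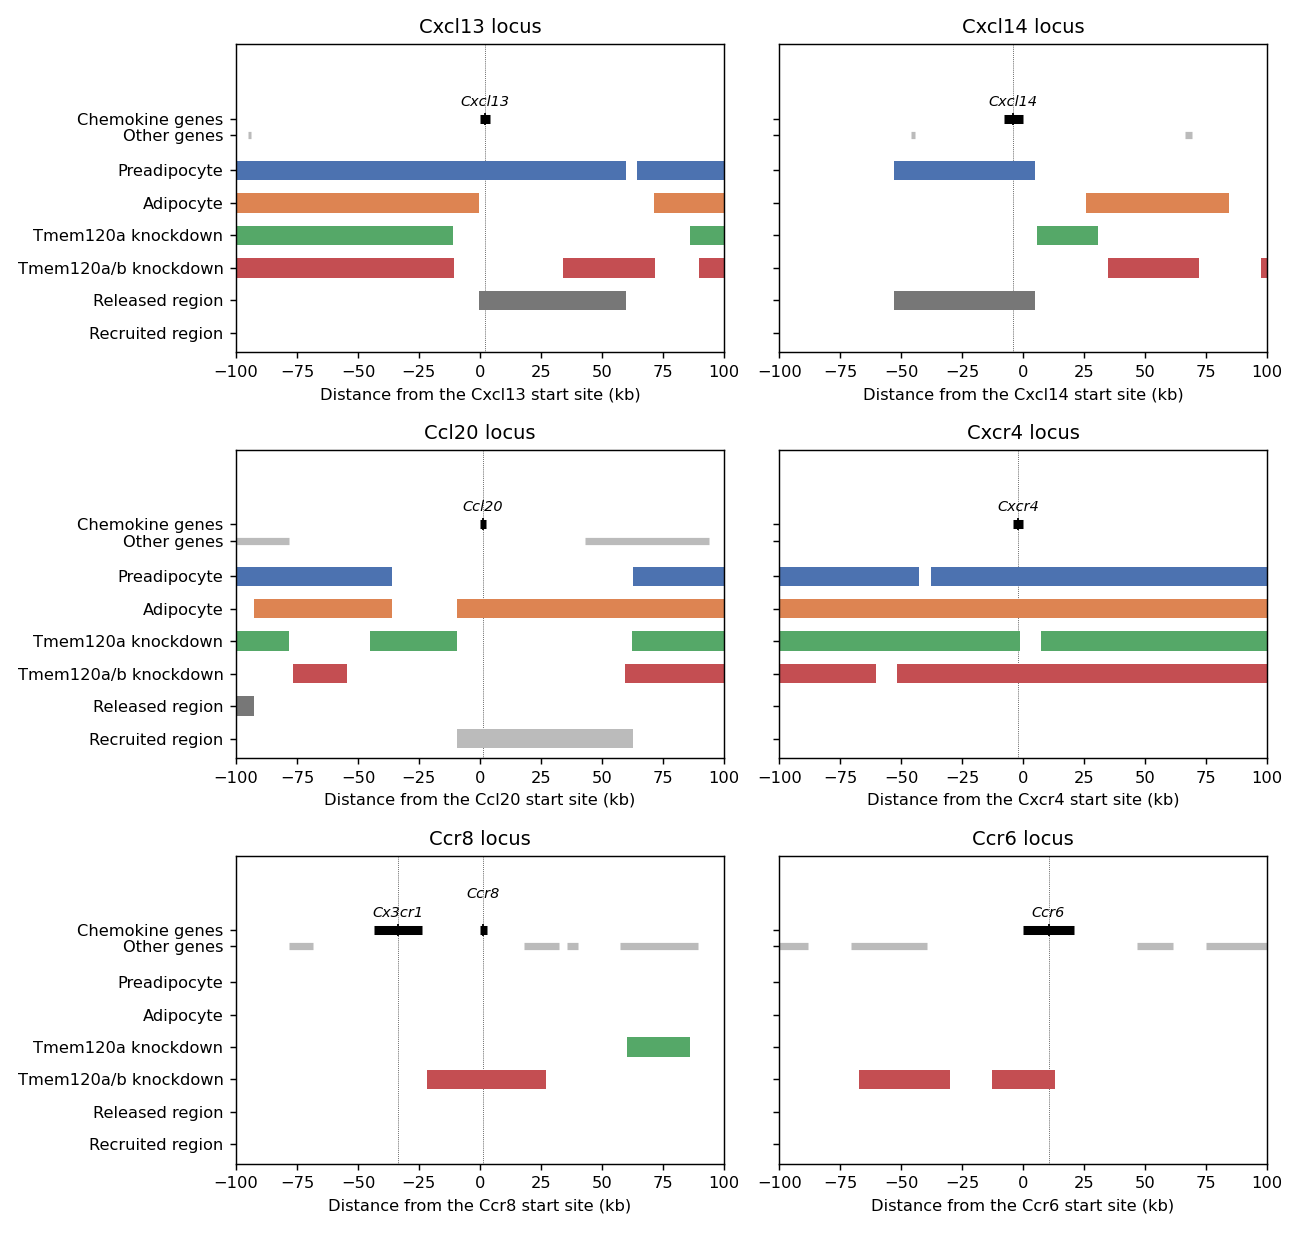
LADs of the 4 lists and the deposited released and recruited regions around Cxcl13, Cxcl14, Ccl20, Cxcr4, Ccr8 and Ccr6, 1 panel per gene, with distance in kb from the gene's start site, in genome direction, on the x axis, and dotted lines at the middle of each chemokine gene. The adipocyte LAD stops 0.507 kb before Cxcl13, an adipocyte LAD covers Ccl20, the single knockdown has a break at the start of Cxcr4, and Ccr8 and Ccr6 are in a LAD in the double knockdown alone.

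For these ligand genes, the 200 bases upstream of the start site were as follows, with matches to the same motifs in capitals.

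Cxcl13, chr5:96385745-96385944, plus strand: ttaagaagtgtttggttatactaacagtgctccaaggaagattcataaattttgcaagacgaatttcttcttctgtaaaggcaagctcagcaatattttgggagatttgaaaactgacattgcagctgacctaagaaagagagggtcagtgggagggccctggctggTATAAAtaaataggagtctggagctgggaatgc

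Cxcl14, chr13:56397913-56398112, minus strand: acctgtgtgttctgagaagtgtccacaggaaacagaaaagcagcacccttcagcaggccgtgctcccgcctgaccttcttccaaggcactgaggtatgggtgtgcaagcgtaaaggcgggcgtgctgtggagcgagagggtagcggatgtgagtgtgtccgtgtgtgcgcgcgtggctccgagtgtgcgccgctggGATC

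Ccl20, chr1:83113141-83113340, plus strand: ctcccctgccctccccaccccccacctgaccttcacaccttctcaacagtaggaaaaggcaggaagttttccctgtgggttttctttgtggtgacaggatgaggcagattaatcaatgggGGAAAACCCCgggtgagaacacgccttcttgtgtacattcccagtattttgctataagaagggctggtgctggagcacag

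Cxcl13 held a TATAAA, Cxcl14 a GATC next to its start and Ccl20 a match to the NF-kappaB consensus. Across the family, TATAAA on either strand was present in this window for 16 of 57 members (28.1%, beside 10.1% of all protein-coding genes). The NF-kappaB consensus on either strand matched for 10 (17.5%, beside 6.53%), namely Ccl20, Cxcl5, Cxcl3, Cxcl1, Cxcl2, Cxcl10, Ccr1, Ccr3, Ccl5 and Ccl9. GATC, which reads the same on both strands, was present for 26 (45.6%, beside 32.9%). Members that arose by duplication share sequence, so these counts do not stand for separate origins, and a match describes letters and not a bound site.

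The knockdowns were compared with the control adipocytes through the same adipocyte list, so the comparisons below share it with each other and with the comparison to preadipocytes. In the single knockdown, 2 members were in LADs that were outside in adipocytes (3.51%, beside 6.13% of all genes), and these were Ccr1 and Ccr1l1. In the opposite direction, Ccl20 and Ccl27b were outside (2 of 57, 3.51%, beside 1.95%). By start site Cxcr4 joined them (3 of 57, 5.26%, beside 2.44%), and the opposite count stayed at 2 (beside 3.76%). With gaps under 50 kb between LADs closed, the Cxcr4 start site was in a LAD in the single knockdown. In the double knockdown, 4 members were in LADs that were outside in adipocytes (7.02%, beside 8.35% of all genes). These were Ccr1 and Ccr1l1 with Ccr8 and Ccr6. Ccl20 was the only member with the opposite difference (1.75%, beside 2.10%). By start site these were the same 4 members and the same 1 (beside 5.28% and 2.69%).

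Of the 5 members that left LADs between preadipocytes and adipocytes, 2 were in LADs in the single knockdown and the same 2 were in LADs in the double knockdown. Among the 1075 protein-coding genes that left LADs in the same comparison, 41.3% and 55.4% were in LADs in the single and the double knockdown. Compared with preadipocytes directly, the single knockdown lacked 4 members, Ccl27b, Cxcl13, Ccr9 and Cxcl14 (7.02%, beside 4.03% of all genes), and gained Ccl21a (1.75%, beside 5.28%). The double knockdown lacked Cxcl13, Ccr9 and Cxcl14 (5.26%, beside 3.44%) and gained Ccl21a, Ccr8 and Ccr6 (5.26%, beside 6.76%). Ccr1 and Ccr1l1 lie in 1 LAD of each knockdown, so these 2 genes count as 1 place.

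Ccr8 and Ccr6 were in LADs in the double knockdown alone (2 of 57, 3.51%, beside 4.05% of all genes). Both calls rest on LADs under 100 kb and are lost when such LADs are dropped. Ccr8 (ENSMUSG00000042262.4, chr9:120001251-120004024, plus strand), a receptor for Ccl1 on regulatory and type 2 helper T cells, was wholly inside a LAD of 48.8 kb with 114 GATC sites (chr9:119979570-120028384). In the other lists its start site was 120 kb from a LAD in preadipocytes, 285 kb in control adipocytes and 60.3 kb in the single knockdown. Its neighbour Cx3cr1 (chr9:119957811-119977400, minus strand), the fractalkine receptor of monocytes and microglia, stayed outside the same LAD, with its start site 2.17 kb from the border. In preadipocytes, adipocytes and the single knockdown the Cx3cr1 start site was 144, 261 and 84.2 kb from a LAD.

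Ccr6 (ENSMUSG00000040899.6, chr17:8429077-8449992, plus strand), the receptor for Ccl20, had 61.9% of its body in a LAD of 25.7 kb with 55 GATC sites (chr17:8416327-8442028). The coding part of Ccr6 lay outside it, 6.80 kb away. In preadipocytes, adipocytes and the single knockdown the Ccr6 start site was 822, 833 and 404 kb from a LAD. The ligand Ccl20 and its receptor Ccr6 were thus each in a LAD in a single list, Ccl20 in adipocytes and Ccr6 in the double knockdown.

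Of the 7 members that met a LAD in all 4 lists, Ccr3 and Ccr2 are described above and Ccl21b, Ccl21c and Ccl19 lie on chromosome 4. The others were Cxcr4 and Ccl1. Cxcr4 (ENSMUSG00000045382.6, chr1:130484776-130488870, minus strand), the receptor for Cxcl12, was at 100% in preadipocytes, adipocytes and the double knockdown. In the single knockdown it was at 65.2%, because a LAD ended inside the gene at position 130487445 and the next began at position 130496096. The Cxcr4 start site lay in that break, 1.42 kb from the LAD.

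Ccl1 (ENSMUSG00000020702.6, chr11:81990159-82119192, minus strand), the T cell chemokine that binds Ccr8, had 35.0% of its body in LADs in preadipocytes, 23.5% in adipocytes, 30.9% in the single knockdown and 53.4% in the double knockdown. Its annotated body of 129 kb extends far beyond its coding part of 2.92 kb. The start site of Ccl1 was in a LAD in all 4 lists. The coding part (chr11:81990329-81993246) was outside LADs in every list, at 80.8, 95.6, 86.1 and 17.5 kb in the same order. By coding part, neither Ccl1 nor Ccr9 was in a LAD in any of the 4 lists.

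The cluster of chromosome 4 holds Ccl27a, Ccl21b, Ccl21c, Ccl27b, Ccl19 and Ccl21a over 1071 kb. Ccl19 and the Ccl21 genes encode the ligands of Ccr7, which lead dendritic cells and T cells to lymph nodes, and the Ccl27 genes encode a skin chemokine that binds Ccr10. Most of the span was in LADs in every list, with 90.3% in preadipocytes, 91.5% in adipocytes, 87.3% in the single knockdown and 93.1% in the double knockdown. The number of its 6 members in LADs was 4, 5, 4 and 5. This is a repeated stretch of the genome: 91.3% of 50-base sequences in its window occurred more than once within that window. Around the other clusters and single members the share was 0.0577% to 7.21%, each within its own window. The windows differed in length, and copies outside a window were not counted. The longest coding sequences of Ccl21b and Ccl21c were 100% identical, that of Ccl21a differed from each at 2 of 399 bases, and those of Ccl27a and Ccl27b differed at 3 aligned bases, with 87 bases unmatched because the annotated lengths differ (492 and 405 bases). Reads from such copies cannot be placed on 1 copy with certainty, and how they were placed was not given in the sources used here. The calls on this chromosome are therefore uncertain.

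The repeats reach the borders themselves. The left end of a LAD in the single knockdown, beside Ccl27a, and the right end of a LAD in the double knockdown, beside Ccl19, fell on identical bases at separate places.

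Beside Ccl27a, chr4:41725389-41725416: tgattcagactaGATCagcctttctgcc

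Beside Ccl19, chr4:42754170-42754197: tgattcagactaGATCagcctttctgcc

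Ccl21b (chr4:41774204-41775337, plus strand), Ccl21c (chr4:42391951-42393082, minus strand) and Ccl19 (chr4:42768057-42770109, minus strand) were at 100% in all 4 lists. Ccl21a (ENSMUSG00000071003.4, chr4:42786392-42787525, minus strand) was at 0% in preadipocytes, 4.50 kb from a LAD, and at 100% in the other 3 lists. The stretch that adipocytes gained there (chr4:42783023-42800327) is 17.3 kb long and is not among the deposited recruited regions, although the shortest of those is 8.08 kb. Ccl27b (ENSMUSG00000066202.4, chr4:42664149-42669537, plus strand) was at 0% in the single knockdown, 10.6 kb from a LAD, and at 100% in the other 3 lists. Ccl27a (chr4:41716340-41721120, minus strand) was outside in all 4 lists but close to a LAD in each, with its start site at 2.82, 17.5, 4.28 and 1.36 kb.

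**Figure D4:**
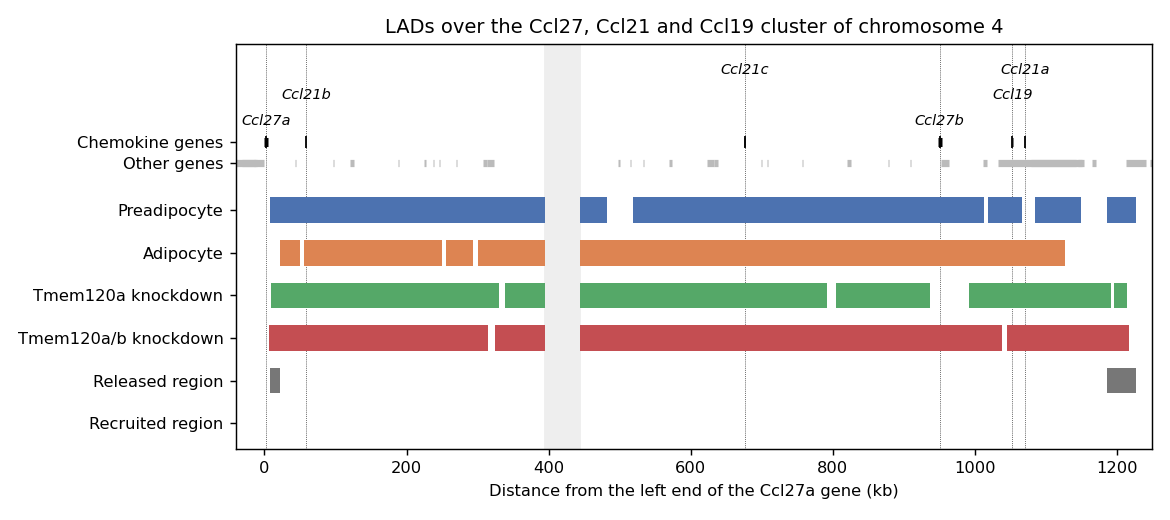
LADs of the 4 lists and the deposited released and recruited regions over the Ccl27, Ccl21 and Ccl19 cluster of chromosome 4, with distance in kb from the left end of the Ccl27a gene on the x axis. Chemokine genes are black ticks, other genes light grey, and the shaded band is an assembly gap; LADs cover 87.3% to 93.1% of the cluster, with a break over Ccl21a in preadipocytes and over Ccl27b in the single knockdown.

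Among the 40 members outside LADs in every list, start sites lay nearer to LADs in the knockdown lists. The median distance from start site to nearest LAD was 340 kb in preadipocytes (range 2.82 to 3871), 379 kb in control adipocytes (17.5 to 2841), 210 kb in the single knockdown (4.28 to 1581) and 185 kb in the double knockdown (1.36 to 1575). Over all 14251 protein-coding genes outside LADs in every list, the medians were 468, 636, 314 and 269 kb, so the lists stood in the same order. Within 100 kb of a LAD were 5, 4, 11 and 10 of the 40 members (12.5%, 10.0%, 27.5% and 25.0%, beside 16.4%, 10.8%, 20.6% and 23.9% of those genes). The knockdown lists hold more LADs, and the part of that number in the distances was not tested.

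**Figure D5:**
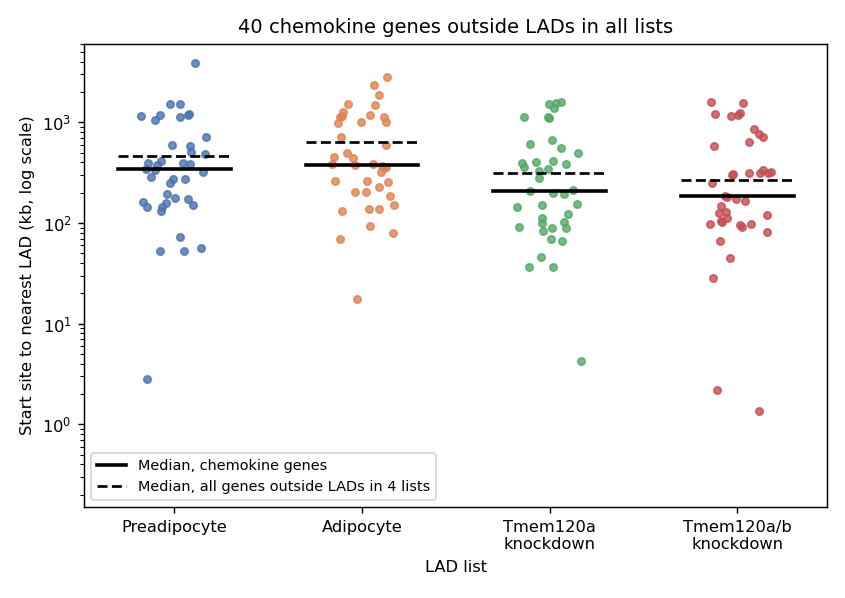
Distance from start site to nearest LAD in kb, on a log scale, for the 40 members outside LADs in all 4 lists, 1 point per gene model and 1 column per list. Solid bars are the medians of these members, 340, 379, 210 and 185 kb, and dashed bars those of all 14251 genes outside LADs in every list, 468, 636, 314 and 269 kb.

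In adipocytes the farthest of these members were Cxcl12, Cxcr7 and Cxcr5. Cxcl12, which retains stem cells and leukocytes through Cxcr4, lay 578 kb from a LAD in preadipocytes, 2841 kb in control adipocytes, 560 kb in the single knockdown and 306 kb in the double knockdown. Cxcr7, an atypical receptor that clears Cxcl12, lay at 3871, 2338, 1538 and 866 kb. Cxcr5, the receptor for Cxcl13, lay at 710, 1883, 666 and 636 kb. These genes were picked for their distance in adipocytes, so nothing is read from the order of their lists. The nearest in adipocytes were Ccl27a and the monocyte chemokine genes Ccl2 and Ccl7. Ccl2 lay 151 kb from a LAD in preadipocytes, 70.1 kb in control adipocytes, 89.3 kb in the single knockdown and 103 kb in the double knockdown, and its neighbour Ccl7 at 161, 80.2, 99.4 and 113 kb. They too were picked by their distance in adipocytes.

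The members of the clusters of inflammatory ligands were outside LADs, apart from Ccl1. On chromosome 11 the cluster from Ccl2 to Ccl1 spans 270 kb. Only the long body of Ccl1, with its start site, met a LAD in it, outside its coding part. The second cluster of that chromosome, from Ccl5 to Ccl4, which holds ligands of Ccr1, spans 139 kb. Its first gene Ccl5 lay 276, 323, 280 and 251 kb from a LAD in preadipocytes, adipocytes, the single knockdown and the double knockdown, and its last gene Ccl4 at 408, 455, 412 and 324 kb. These ligands of Ccr1 were therefore outside LADs in every list, including the lists in which Ccr1 was inside.

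On chromosome 5 the cluster from Cxcl5 to Cxcl2, which encodes neutrophil-attracting ligands of Cxcr2, spans 147 kb. Cxcl5 lay at 249, 229, 194 and 148 kb and Cxcl2 at 394, 373, 90.3 and 92.3 kb. Their receptor genes Cxcr2 and Cxcr1 on chromosome 1 lay at 340, 349, 360 and 314 kb and at 381, 390, 400 and 316 kb. The interferon-induced pair Cxcl9 and Cxcl10, ligands of Cxcr3, was among the members with the largest differences between lists. Cxcl9 lay 196 kb from a LAD in preadipocytes, 1007 kb in control adipocytes, 66.2 kb in the single knockdown and 186 kb in the double knockdown. Cxcl10 lay at 175, 987, 45.4 and 165 kb. The LAD nearest to both genes was 32.4, 753, 15.9 and 23.9 kb long in the same order of lists. Distances without short LADs were not computed. Cxcr3 itself, on the X chromosome, lay at 1051, 1011, 384 and 723 kb.

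Ccl26 and Ccl24, ligands of Ccr3 on chromosome 5, lay at 1518, 1499, 1571 and 1566 kb and at 1527, 1509, 1581 and 1575 kb. On chromosome 8, Ccl22 lay at 1181, 1185, 1095 and 1200 kb and Ccl17 at 1151, 1120, 1137 and 1144 kb. Both are ligands of Ccr4, and the receptor gene Ccr4 lay at 131, 138, 122 and 129 kb. These distances varied little between lists. The first and second models of Ccl25, the ligand of Ccr9, gave 52.6, 203, 36.3 and 98.3 kb and 52.6, 204, 36.3 and 98.3 kb. The coding part of the first Ccl25 model lay at 18.3, 228, 2.01 and 64.0 kb. On chromosome 11, Ccr7, the receptor for Ccl19 and Ccl21, lay at 504, 708 and 492 kb in preadipocytes, adipocytes and the single knockdown and at 28.7 kb in the double knockdown, where a LAD of 16.7 kb was called near it. Ccr10 lay at 1199, 1277, 1392 and 1238 kb.

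Single members outside LADs differed in how much their distance to the nearest LAD varied between lists. Xcl1 lay at 1133, 1127, 212 and 769 kb, Cxcl17 at 484, 496, 69.9 and 44.8 kb and Cxcl16, the ligand of Cxcr6, at 599, 601, 614 and 587 kb. Cxcl17 was nearest to a LAD in the knockdowns, while the distance of Cxcl16 varied little between lists.

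The GATC sites set how finely a chemokine gene can be placed. The median member had a body of 4.78 kb with 12 GATC sites (range 0 to 335), against 15.4 kb and 38 sites over all genes. The density was 2.46 sites per kb for members and 2.41 for all genes, so the difference in number follows the length. Ccl17 was the member with no GATC in its body. Members were mostly at 0% or 100%, as the values above show, and the exceptions were Ccr9, Ccl1, Ccr6 and Cxcr4. Ccr9, Ccl1 and Ccr6 have long bodies (104, 129 and 20.9 kb), and Cxcr4 a short one (4.10 kb).

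Other genes of the pathway were taken from a list of ligands named otherwise, decoy receptors, chemerin, signalling proteins and related chemoattractant receptors. It gave 38 gene models beside the members. Their bodies met a LAD in 5 cases in preadipocytes (beside 26.2% of all genes), 6 in adipocytes (beside 23.3%), 5 in the single knockdown (beside 27.5%) and 7 in the double knockdown (beside 29.5%), and 29 of the 38 met none in any list (beside 63.7%). Gnai1, Adrbk2, Dock2 and Elmo1, which act in signalling from the receptors to cell movement, met LADs in all 4 lists by gene body, but the start sites of 3 of them differed between lists. The start site of Elmo1 was in a LAD in adipocytes alone, that of Dock2 in every list but the single knockdown, and that of Adrbk2 in preadipocytes and the single knockdown. The share of the Elmo1 body in LADs was 44.4% in preadipocytes, 64.7% in adipocytes, 32.2% in the single knockdown and 32.7% in the double knockdown, and 105 kb of it lay in a recruited region. By gene body, 0 of the 38 left LADs between preadipocytes and adipocytes (beside 4.81% of all genes), and by start site 1 did, Adrbk2 (beside 3.94%).

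By gene body, the state of 5 of the 38 differed between lists (beside 16.9% of all genes). Rgs1, which dampens signalling from chemokine receptors, was at 100% in adipocytes and 0% in the other 3 lists, as Ccl20 was (1 of 38, beside 0.434% of all genes), but unlike Ccl20 it met no deposited recruited region. Darc, a decoy receptor that binds many inflammatory chemokines, was at 0% in the double knockdown and 100% in the other 3. Pik3cg, a lipid kinase subunit that acts in leukocyte migration, Grk5, a kinase that desensitises receptors, and Fpr2, a formyl peptide receptor, met LADs in the double knockdown alone, with 86.7%, 8.84% and 100% of their bodies (3 of 38, beside 4.05% of all genes).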

How the data were processed

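The deposited files used here list positions only: a LAD list for each of the 4 conditions and lists of released and recruited regions, on mm9 (unit: interval borders). According to the study's methods, the authors aligned reads to mm9, computed log2(LaminB1-Dam/Dam) per DpnI fragment, segmented these values with DNAcopy to call LADs, and took differential regions from preadipocyte and adipocyte LADs. The submitters' processing notes name BWA and limma, with no version. Segmentation parameters were not given in the sources used here. No read counts or ratios were used, so depth is unknown and no interval or detection limit is given. Columns of samples outside the series numbered 0.

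Gene models were the protein-coding genes of GENCODE vM1 (mm9). A body was counted as in a LAD when at least 1 base overlapped, and distances run from the start site to the nearest LAD. Members no more than 1 Mb apart formed a cluster. Subtracting the preadipocyte and adipocyte lists from each other gave 3199 and 3052 pieces. All deposited released and recruited regions are among these pieces, with the same borders, so they are a selection. Named genes were all members that met a LAD or differential region, the 3 nearest and 3 farthest of the rest in adipocytes, the first and last of each cluster, and pathway genes whose state differed between lists. Members in no cluster were named as well. Genes named outside this rule (Cxcr6, Xcr1, and the pathway genes that met LADs in all 4 lists) were chosen after their values were seen. One further gene that the symbol rule names is not reported here and was left out of every count. The members and lists were chosen with earlier results of these data known. Sequences came from the mm9 assembly. Alternatives were the share of the body required, LAD length, closed gaps, windows around genes, a narrower symbol rule, and, chosen after seeing the data, the coding span and leaving out chromosome 4. The overlap code was tested on 6000 simulated queries, with 0 mismatches. Python 3.11.15, numpy 2.4.6, matplotlib 3.10.9 and Biopython 1.88 were used.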

Additional observations from a re-analysis of the deposited data

How the results depend on the processing

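Of 104 counts of members recomputed under alternatives, 81 were within 1.5 times the count given above. With only symbols that end in the number (51 members), the body met a LAD for 6 members in adipocytes, 6 in the single knockdown and 8 in the double knockdown, the start site lay in a LAD for 6, 5 and 8, and 1 member was in a LAD in adipocytes and not in preadipocytes, 1 in adipocytes and not in the single knockdown, and 1 the other way round. Without the 6 members of chromosome 4, an alternative chosen after seeing the data, the corresponding values were 5, 6 and 8, then 5, 5 and 8, then 1 and 1, and 2 for the last. Closing gaps under 50 kb between LADs, or widening the gene body by 10 kb on each side, left 1 member in a LAD in adipocytes and not in preadipocytes, and the widened body gave 2 in adipocytes and not in the double knockdown and 4 in the single knockdown and not in adipocytes. When LADs under 100 kb were dropped, 3 members left LADs between preadipocytes and adipocytes, against 5 above, without Ccr9 and Cxcl14. Under that setting 3 entered, against 2 above, with Ccl19 of chromosome 4 added. In a LAD in the double knockdown and not in adipocytes were 2, against 4 above, without Ccr8 and Ccr6. With the coding span in place of the body, also chosen after seeing the data, 4 members left LADs between preadipocytes and adipocytes, against 5. No paired analysis was possible because each condition had 1 LaminB1-Dam and 1 Dam library and no replicate. For the same reason no replicate could be left out. The files carry no read depth, so how much sequencing limits the position of a border cannot be given.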
